A study of Mus musculus with 33 samples.

Results

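Libraries from 50 pg of mRNA made by DP-seq (3) and by SMART-seq (2) were compared, 5 of the 33 libraries in the series. All came from mouse embryonic stem cells differentiated as embryoid bodies in serum-free medium, dispersed on day 2, given activin A at 3 ng/mL for 2 days and harvested on day 4. The members were chosen by their labels, with earlier results of these data known. They were the 2 DP-seq libraries of an mRNA dilution series, the 2 SMART-seq libraries and a further DP-seq library. The label of that further library names a set of 44 primers, and it is called the method-set library here. Further libraries served as outer checks: DP-seq and SMART-seq libraries of 50 pg mRNA from cells at 100 ng/mL activin (2 of each), and standard RNA-seq of 20 ng mRNA at 3 ng/mL (2 libraries). Each pair is labelled as technical replicates, so the spread between them is technical and the p-values below set method differences against that spread only. The labels do not say whether the DP-seq and SMART-seq libraries started from one RNA preparation, so method and preparation cannot be told apart.

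DP-seq primes cDNA with a defined set of short heptamer primers chosen to anneal across many transcripts, and amplifies the stretches between primer sites, so that the reads of a gene come from a few fixed amplicons. SMART-seq relies on a reverse transcriptase that switches template at the 5′ end of the mRNA, copies each transcript from its poly(A) tail to its cap, and amplifies the full-length cDNA by PCR before fragmentation. Standard RNA-seq fragments the RNA or cDNA without such preamplification. Activin A signals through Smad2 and Smad3 and drives these cells toward primitive streak and endoderm.

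The DP-seq libraries held 5777440 and 6721838 counts and the method-set library 10678979, against 28454626 and 30609013 counts in the SMART-seq libraries. The standard RNA-seq libraries held 10738438 and 10409094 counts. Values below were therefore compared at equal depth or on a scale of counts per 1000000 (CPM) with TMM factors, which set the bulk of genes to a common level. Where a single gene is given in counts, these are raw and not scaled for depth. Npm1, a nucleolar chaperone, took the most counts of any gene in the DP-seq dilution pair and in SMART-seq, counts not being divided by length, at 3.36% and 3.06% of counts in DP-seq and 1.71% and 1.77% in SMART-seq. Embryoid body identity was checked with lineage markers. The primitive streak gene T, the anterior endoderm gene Cer1 and the pluripotency gene Pou5f1 were well counted in all 5 libraries. Not every such marker was. The streak gene Eomes was below the filter on low counts, and the epiblast gene Dnmt3b had 3 and 7 counts in the dilution pair. Afp, Hbb-bh1, Elf5 and Tpbpa, which mark visceral endoderm, blood and trophoblast, had 0 counts in each of the 5. Other markers of those cell types were counted, and 7 of 18 extraembryonic endoderm, 6 of 16 blood and endothelium and 3 of 13 trophoblast markers passed the filter on low counts.

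The first question was how many genes each method detects from 50 pg when depth is made equal. With each library drawn down to 5777440 counts, the 2 DP-seq libraries were expected to show at least 1 count for 11717.0 and 11639.6 genes, against 12307.5 and 12180.6 genes in SMART-seq. The method-set DP-seq library gave 12315.2 genes. The mean difference, DP-seq minus SMART-seq, was thus -566 genes for the dilution pair, which lay below both SMART-seq libraries, while the method-set library lay above both. At 100 ng/mL activin the counts were 12101.9 and 12291.3 genes in DP-seq and 12072.9 and 12091.3 in SMART-seq, so DP-seq was the higher there. A comparison of 2 libraries with 2 cannot reach p under 0.05 in an exact permutation test (the smallest two-sided p is 0.333), so no test is given.

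With a stricter definition of detection the gap between the dilution pair and SMART-seq at 3 ng/mL nearly closed. The method-set library moved further above SMART-seq. At least 10 counts were expected for 9091.0 and 9017.3 genes in DP-seq, 9557.7 in the method-set DP-seq library, and 9110.4 and 9093.9 genes in SMART-seq. When only 1000000 counts were drawn, the order at this threshold turned, with 6053.3 and 5979.7 genes in DP-seq and 5807.3 and 5890.3 in SMART-seq. Standard RNA-seq of 20 ng stood above all 50 pg libraries, at 15176.5 and 15182.1 genes with at least 1 count at the common depth.

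**Figure D1:**
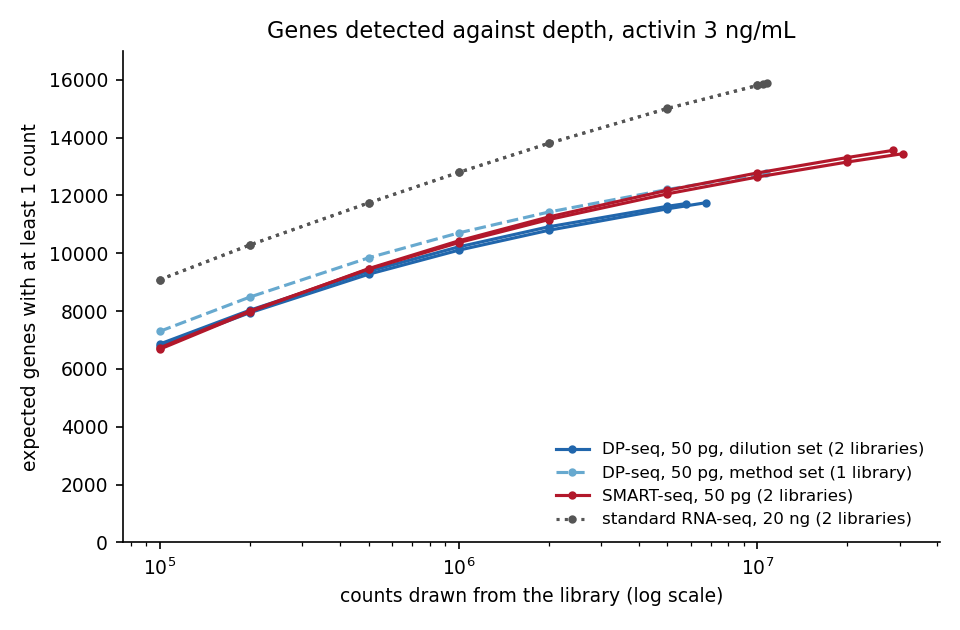
Expected number of genes with at least 1 count (vertical axis) against the counts drawn from a library (horizontal log axis), with 1 line per library at activin 3 ng/mL. The DP-seq and SMART-seq lines of 50 pg lie close together, between 11639.6 and 12315.2 genes at 5777440 counts, below the standard RNA-seq lines at 15176.5 and 15182.1.

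Detection differed most at low abundance. Among 1712 genes at 1 to 3 CPM in standard RNA-seq, DP-seq detected 52.8% in each library and the method-set library 58.5%, against 61.7% and 60.1% in SMART-seq. Among 3394 genes at 30 to 100 CPM, DP-seq detected 99.2% and 99.0%, and SMART-seq 99.3% and 99.6%. Of 5335 genes listed at 0 in standard RNA-seq, DP-seq showed 2.17% and 2.13% and SMART-seq 3.07% and 2.94%. The method-set DP-seq library showed 4.59%, above both SMART-seq libraries.

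The share of low genes detected varied with transcript length. Among genes at 1 to 10 CPM in standard RNA-seq with transcripts of 500 to 1000 bases, DP-seq detected 72.3% and 70.2% and the method-set library 69.8%, against 93.9% and 92.4% in SMART-seq. Among genes of the same level with transcripts of 8000 bases and over, DP-seq detected 67.6% and 73.0% and the method-set library 74.3%, against 50.8% and 46.6% in SMART-seq. The methods did not overlap in either length class, and they stood in opposite order. These 2 classes held 188 and 105 genes.

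At the common depth 10648.9 genes were expected in both DP-seq libraries, which is 83.8% of those in at least 1. In SMART-seq 11085.6 genes were expected in both libraries, or 82.7% of those in at least 1. Both methods shared 9473.2 genes over all 4 libraries. A further 434.4 genes were expected in both DP-seq libraries and neither SMART-seq library, and 795.1 genes in both SMART-seq libraries and neither DP-seq library. At 100 ng/mL these exclusive sets were closer in size, at 589.3 and 630.9 genes.

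In the undrawn counts 230 genes were counted in both DP-seq libraries and in neither SMART-seq library, and 168 of them were also counted in the method-set DP-seq library. Their counts were low, with a median sum of 13 and a highest sum of 168. The reverse set held 1307 genes, with a median sum of 22 counts and a highest sum of 6634. Of these, 456 were counted in the method-set DP-seq library. SMART-seq was sequenced more deeply, and the sets at equal depth, given above, differed less in size. Median transcript length was 3248.5 bases in the genes seen by DP-seq alone and 2138 bases in those seen by SMART-seq alone.

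The genes with most counts in DP-seq and 0 in both SMART-seq libraries included Tppp, a tubulin-binding protein, with 86 and 69 counts in DP-seq, at least 180-fold higher than a floor of 3 counts over both SMART-seq libraries allows. Scn7a, a sodium channel gene, had 56 and 78 counts, and Gpr63, an orphan receptor gene, 67 and 43 counts. Macc1 had 23 and 98 counts and a transcript given only as NM_010400.2 74 and 94. Gpr63 had 132 counts in the method-set library and Tppp 5, while Macc1 had 0 there. All 5 genes had 132 counts or fewer in each DP-seq library at 3 ng/mL.

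Among genes with 0 counts in both DP-seq libraries, those with most counts in SMART-seq had 1386 or more in each of its libraries. Not all were abundant in standard RNA-seq. Ptcra, which encodes the pre-T-cell receptor alpha chain, had 0 counts in DP-seq against 3302 and 3203 in SMART-seq, at least 623-fold lower. It had 0 counts in the method-set DP-seq library too, and 6 and 8 counts in standard RNA-seq. The glutathione transferase family gene Mgst3 had 0 counts in DP-seq against 3099 and 3535 in SMART-seq, at least 635-fold lower, and 1 count in the method-set library. The ribosomal protein gene Rpl34 had 0 against 3067 and 3029 counts, at least 583-fold lower, and the nucleoside kinase gene Nme2 0 against 2219 and 2232, at least 426-fold lower. Their method-set counts were 15 and 18. Rpl34 had 114 and 116 counts in standard RNA-seq and Nme2 575 and 487, so both were also counted without preamplification. The glycolytic genes Aldoa (aldolase A) and Eno1b (an enolase) also had 0 counts in both DP-seq libraries, against 1386 and 1475 counts for Aldoa and 1466 and 1624 for Eno1b in SMART-seq. Many ribosomal protein and glycolytic genes have near-identical copies in the genome, and the file headers call the values unique reads without saying how reads that match several copies were treated, which leaves the levels of such genes uncertain.

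The second question was which genes each method favours. Of 11207 genes tested, 5588 (49.9%) differed between the methods at an adjusted p under 0.05 in edgeR's quasi-likelihood test with Benjamini-Hochberg adjustment. They comprised 2462 genes higher in DP-seq (22%) and 3126 lower (27.9%), of which 2246 (20%) and 2915 (26%) differed at least 2-fold. The 2 libraries of one method stood wholly above the 2 of the other for 78.1% of the genes tested, against 49.9% called. With library totals in place of TMM factors, 3085 genes were higher and 2501 lower, and the median difference of all genes moved to a log2 of 0.23, against -0.21 with TMM. Directions given below for called named genes, gene lists and length classes of this contrast hold under both scalings unless stated. Library totals were not applied to the standard RNA-seq contrasts, the GC classes or the lists compared within length classes. Nor were they applied to the keratin, Activin/Nodal, pluripotency and germ layer lists. Log2 differences are DP-seq over SMART-seq on the TMM scale.

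The same contrast at 100 ng/mL activin, which used none of these libraries, called 5341 of 11508 genes (46.4%), 2465 higher (21.4%) and 2876 lower (25%). At least 2-fold higher were 20.2% of its genes and at least 2-fold lower 23.8%. Among 10653 genes tested at both doses, 1521 were at least 2-fold higher in DP-seq in both contrasts, which is 70.1% of the calls at 3 ng/mL and 69.1% of those at 100 ng/mL. For genes lower in DP-seq, 2133 were shared, or 75.2% and 80.8% of the calls. Another 15 genes were called in opposite directions. A test of the difference between the contrasts, added after the data were seen, called 627 of 12598 genes (4.98%), in which dose and DP-seq library set cannot be told apart. Across genes the log2 differences of the 2 contrasts correlated with r = 0.79, a description over genes read by the same 2 methods in both contrasts. The method-set DP-seq library over the same SMART-seq libraries gave 4452 calls among 12236 genes (36.4%), 2088 higher (17.1%) and 2364 lower (19.3%). The method-set library is a single library that was assumed to vary like the other groups.

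Transcript length ordered the differences. Genes with transcripts under 500 bases had a median log2 difference of -4.28, and 57 of 93 fell in DP-seq relative to SMART-seq while 6 rose. The median was -3.26 at 500 to 1000 bases, with 485 of 681 genes lower, and -1.57 at 1000 to 2000 bases, with 1240 of 2474 lower. It was -0.09 at 2000 to 4000 bases, where 981 genes rose and 998 fell. From 4000 to 8000 bases it was 0.80, with 900 of 2760 higher, and at 8000 bases and over it was 1.29, with 208 of 502 higher and 22 lower. Libraries at 100 ng/mL gave the same order, from -4.63 for the shortest class to 1.39 for the longest, and the method-set library ran from -4.61 to 1.51. In the class of 2000 to 4000 bases the direction depended on the scaling and the libraries.

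**Figure D2:**
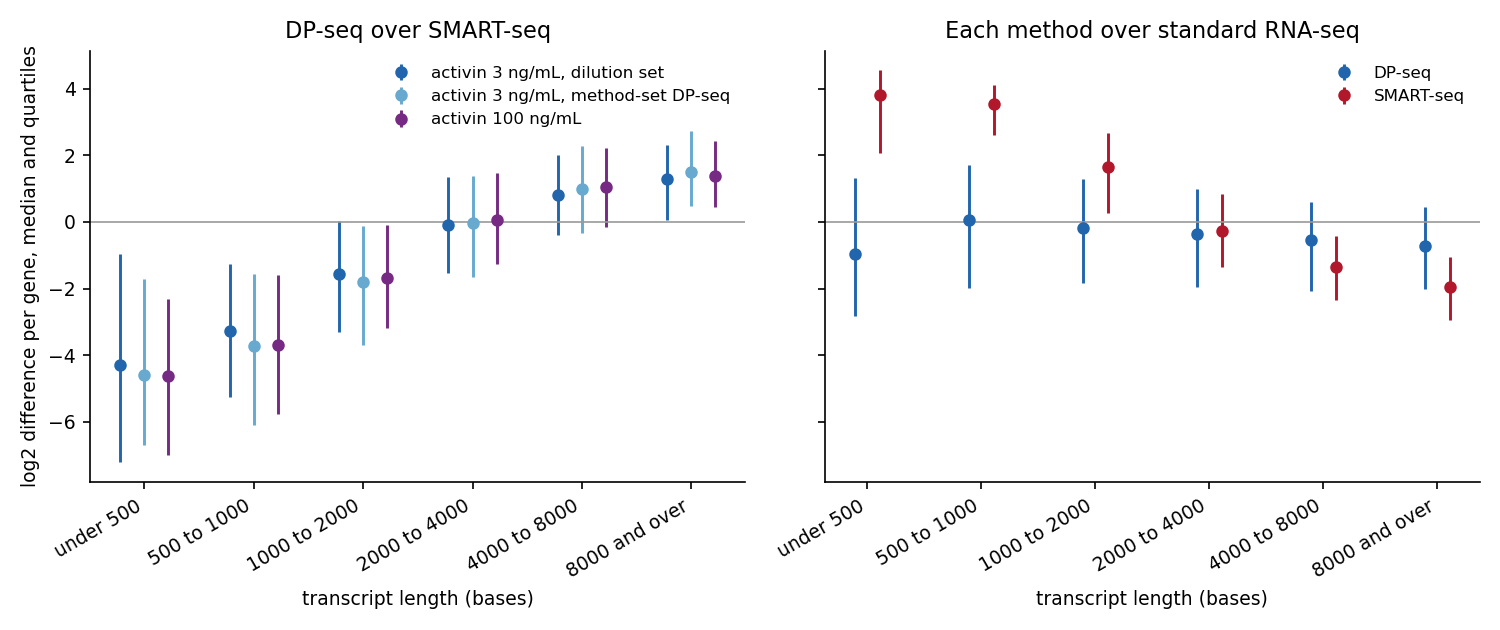
Log2 difference per gene (vertical axis) by transcript length class in bases (horizontal axis), points giving the median and bars the quartiles over genes. Left, DP-seq over SMART-seq in 3 contrasts, climbing with length from -4.28 to 1.29 in the dilution set. Right, each method over standard RNA-seq, where SMART-seq descends from 3.81 to -1.96 and DP-seq stays between -0.97 and 0.04.

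Set against standard RNA-seq at the same activin dose, the medians varied with length mostly in SMART-seq. Both methods differed from standard RNA-seq at about as many genes of 12385, 6127 for DP-seq (49.5%) and 6449 for SMART-seq (52.1%). In SMART-seq over standard RNA-seq the median log2 difference was 3.81 under 500 bases, 1.64 at 1000 to 2000 bases, -0.28 at 2000 to 4000 bases and -1.96 at 8000 bases and over. In DP-seq over standard RNA-seq the same classes stood at -0.97, -0.19, -0.35 and -0.71. The order of the methods in scatter around standard RNA-seq depended on the measure. The SD over genes of the fitted log2 differences was 2.75 in DP-seq and 2.48 in SMART-seq, whereas the SD of the log2 ratios of single libraries to standard RNA-seq, over 10462 genes, was 2.24 to 2.27 in DP-seq and 2.29 in SMART-seq. Within 2-fold of standard RNA-seq were 36.9% of genes in DP-seq and 34.5% in SMART-seq. At 500 to 1000 bases those shares were 29.6% in DP-seq and 6.57% in SMART-seq, whereas at 2000 to 4000 bases they were 36.7% and 46.3%.

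Base composition was a further axis. Among the 10% of genes with the highest GC content, the median log2 difference from standard RNA-seq was -2.36 in DP-seq and -1.25 in SMART-seq. Among the 10% with the lowest GC content it was 0.33 in DP-seq and 0.13 in SMART-seq. Directly between the methods, the 10% of highest GC had a median log2 of -1.06 with 130 of 1100 genes higher and 349 lower in DP-seq, and the 10% of lowest GC 0.21 with 322 higher and 250 lower. Within each length class the genes of the upper GC tercile (above 53.3%) stood lowest, for example at -2.05 against -1.08 in the lower tercile (under 47.1%) at 1000 to 2000 bases.

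Protein complexes of small subunits were among the groups lower in DP-seq. Cytosolic ribosomal protein genes took 8.61% and 8.95% of counts in DP-seq and 7.01% in the method-set library, against 28.2% and 27.5% in SMART-seq. Their share in standard RNA-seq was 7.99% in both libraries, near the DP-seq values. Of the 89 members 87 passed the filter on low counts, and 79 of these fell and 3 rose, with a median log2 difference of -3.52, against -0.21 over all genes and shares of 27.9% lower and 22% higher. SMART-seq over standard RNA-seq called 86 of 87 members higher (26.7% of all genes) with a median of 3.31, while DP-seq over standard RNA-seq called 34 higher and 44 lower (21.9% and 27.5% of all genes) with a median of -0.29.

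Single ribosomal protein genes differed widely. Rpl41, with a transcript of 437 bases, had 150 and 99.5 CPM of the library total in DP-seq against 14041 and 13109 in SMART-seq, a log2 difference of -7.21 (SE 0.217, adjusted p = 1.68e-06), and 1637 and 1653 CPM in standard RNA-seq. Rpl13 had 11.1 and 9.52 CPM in DP-seq against 8537 and 7554 in SMART-seq, with 1712 and 1736 in standard RNA-seq. Both genes were named after their values were seen. DP-seq was thus far below standard RNA-seq at these genes and SMART-seq far above. The members that rose were Rpl23, Rps13 and Rps12, at log2 differences of 0.97, 0.63 and 0.45. For Rpl23 the method-set library gave -1.05 and the 100 ng/mL contrast -0.97, so it was higher with the dilution pair and lower in the other contrasts, and Rps12 had -1.35 at 100 ng/mL. Rps13 was higher in DP-seq at 100 ng/mL as well, at 0.41.

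Mitochondrial ribosomal proteins, which translate the mitochondrial genome, had 59 of 77 tested members lower in DP-seq and 7 higher (median -2.56). Mrpl34 stood at 0.885 and 3.09 CPM in DP-seq and at 423 and 390 CPM in SMART-seq, a log2 difference of -7.63 (SE 0.396). Mrpl20 went the other way, with 1982 and 2063 CPM in DP-seq and 568 and 512 in SMART-seq (log2 1.90, SE 0.0934). Both differences held at 100 ng/mL, at -6.22 and 1.41. That the libraries of the 2 methods did not overlap was a condition for naming these genes.

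Respiratory chain and ATP synthase subunits, which carry out oxidative phosphorylation, had 73 of 83 tested members lower and 5 higher (median -3.92). Atp5c1, the gamma subunit of ATP synthase, had 0 counts in both DP-seq libraries against 830 and 744 in SMART-seq, at least 151-fold lower. Sdhd, a membrane anchor of succinate dehydrogenase, was the largest rise, with 2472 and 2047 CPM in DP-seq and 684 and 702 in SMART-seq (log2 1.71). With the method-set library it was lower and called, at -0.88, and at 100 ng/mL it was -0.64 and not called. Proteasome subunits had 35 of 46 members lower and 5 higher (median -2.23). Psme4, a long activator subunit, rose, with 529 and 635 CPM in DP-seq against 90.2 and 91.0 in SMART-seq (log2 2.68, SE 0.142).

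These complexes are made of short genes, and their levels were also compared with other genes of the same length class. At 500 to 1000 bases the median log2 difference was -3.52 in 49 ribosomal protein genes, -4.22 in 45 respiratory chain genes and -3.91 in 24 mitochondrial ribosomal genes, against about -3.24 in the other genes of that class, 632 beside the ribosomal list. At 1000 to 2000 bases it was -2.82 in 21 ribosomal protein genes and -2.20 in 26 proteasome genes, against -1.55 in the other genes of each comparison. The gaps were wider in several other classes. Under 500 bases the median was -6.12 in 11 ribosomal protein genes against -3.32 in other genes, and -6.07 in 10 respiratory chain genes against -3.16. Proteasome genes of 500 to 1000 bases stood at -5.16 (8 genes) against -3.25. At 2000 to 4000 bases their gap was narrower, at -0.43 (9 genes) against -0.09. Mitochondrial ribosomal genes stood at -1.85 (15 genes) against -0.09 at 2000 to 4000 bases, and at -1.64 (6 genes) against 0.80 at 4000 to 8000 bases.

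Groups of long genes were higher in DP-seq. Of 49 tested genes on a list of very long protein genes 22 rose and 1 fell (44.9% and 2.04%, against 22% and 27.9% of all genes), with a median log2 difference of 1.31. At 8000 bases and over the median was 1.24 in 46 members and 1.29 in the 456 other genes, so the list stood near other genes of its length. Mga, a very large transcription factor that pairs with Max, had 36.3 and 45.2 CPM in DP-seq and 0.125 and 0.338 CPM in SMART-seq (log2 7.39, SE 0.600). Mki67, the proliferation marker, had 206 and 240 CPM in DP-seq and 61.9 and 64.1 in SMART-seq (log2 1.83) and was named after its value was seen. Cbl, a ubiquitin ligase with a transcript of 11372 bases, had 773 and 841 counts in DP-seq and 2103 in the method-set library, against 0 and 4 in SMART-seq. Prkdc, a DNA repair kinase, was the one that fell (log2 -2.43, adjusted p = 0.044). Its call was lost with library totals (-2.0) and when either DP-seq library or the second SMART-seq library was left out (-2.84 to -1.34), and the method-set library gave 0.59. Without the first or the second DP-seq library the list had 14 and 15 members higher in place of 22.

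Collagens, laminins and integrins, which build and bind the extracellular matrix, had 11 of 31 tested members higher and 0 lower, with a median log2 difference of 1.31. Leaving out the first or the second DP-seq library reduced this count to 3 and 2 and the median to -0.18 and 0.81, and the median was 0.66 with no filter on low counts. Col5a1, a fibrillar collagen chain, had 5.61 and 8.75 CPM in DP-seq and 0.915 and 0.376 in SMART-seq (log2 3.46, adjusted p = 0.0259), and lost its call without either DP-seq library or without the second SMART-seq library (2.93 to 3.77). At 100 ng/mL the list had 10 of 38 members higher and 2 lower, with a median of 0.33. Zinc finger genes of the Zfp series, a large family of transcriptional regulators, had 63 of 282 higher and 47 lower (22.3% and 16.7%), against 22% and 27.9% of all genes, with a median of 0.20. At 4000 to 8000 bases the median was 0.33 in 81 Zfp genes against 0.80 in other genes, and at 8000 bases and over 1.42 in 13 against 1.28. For all Zfp genes tested the median turned to -0.15 with no filter on low counts and to -0.14 without the second DP-seq library. Without the first or the second DP-seq library 36 and 30 of them were higher. Histone genes, many of whose transcripts lack a poly(A) tail, had 8 of 20 tested members lower and 3 higher, out of 78 in the files, but 5 lower and 5 higher with library totals. The linker histone gene H1f0 was among the 3, with 385 and 464 CPM in DP-seq and 98.6 and 71.3 in SMART-seq (log2 2.32). The count of histones lower was 5 or 6 without any 1 library, 5 with the method-set library and 14 at 100 ng/mL. Keratin genes had 4 of 7 lower and 0 higher. Krt19, an epithelial keratin, had 9 and 2 counts in DP-seq against 3130 and 3143 in SMART-seq.

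**Figure D3:**
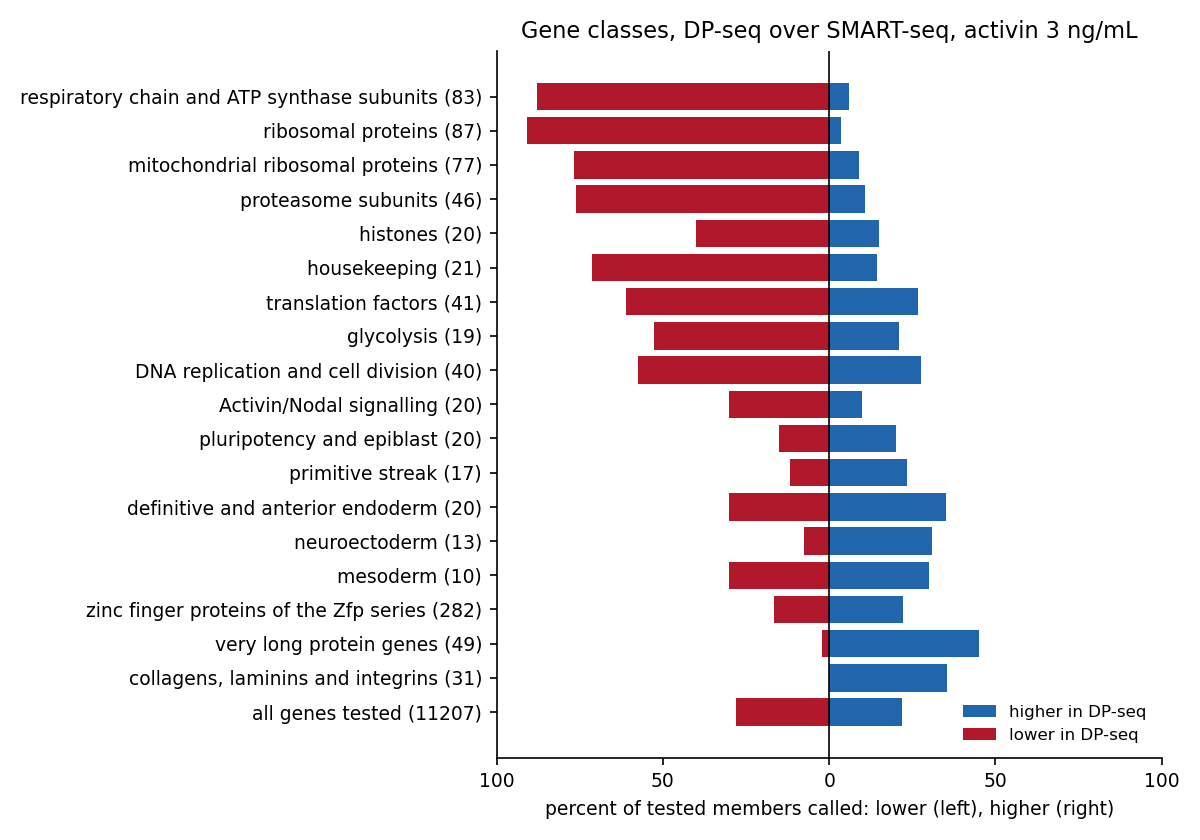
Percent of tested members of each gene list that fell (left, red) or rose (right, blue) in DP-seq over SMART-seq at activin 3 ng/mL, with the number tested in brackets. Respiratory chain and ribosomal protein genes reach 73 of 83 and 79 of 87 lower, very long genes and matrix genes lean the other way, and all genes tested stand at 27.9% lower and 22% higher.

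Genes often used as references for level did not keep one relation between the methods. On the housekeeping list 15 of 21 members were lower in DP-seq and 3 higher (71.4% and 14.3%). Over all genes tested 27.9% were lower and 22% higher, which also stands beside the lists that follow. Gapdh, a glycolytic enzyme, took 1.18% and 1.22% of counts in DP-seq and 1.30% in the method-set library, against 0.0213% and 0.0208% in SMART-seq and 0.00890% and 0.00836% in standard RNA-seq. Its log2 difference was 5.39 (SE 0.0798, adjusted p = 3.6e-07) and 5.61 at 100 ng/mL. Gapdh has many processed copies in the mouse genome, so this level is uncertain for the reason given for Aldoa. Of 19 glycolytic genes tested 10 fell and 4 rose (52.6% and 21.1%). Replication and division genes had 23 of 40 lower and 11 higher (57.5% and 27.5%). Ccna2, the S-phase and mitotic cyclin A2, was the largest rise at 1567 and 1507 CPM in DP-seq against 76.3 and 68.4 in SMART-seq (log2 4.41). Translation factors had 25 of 41 lower and 11 higher, and Btf3, a nascent-chain binding factor, had 2 and 2 counts in DP-seq against 2197 and 2311 in SMART-seq.

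Genes of the activin response and of the germ layers are given with the share of each list called, beside 22% higher and 27.9% lower over all genes tested, and those shares show nothing particular to the lists. In bulk samples, fewer cells of a type and less RNA per cell cannot be told apart. Of 20 tested Activin/Nodal genes 2 rose and 6 fell (10% and 30%). Id1, a Smad target, had 3.25 and 4.38 CPM in DP-seq against 91.7 and 82.5 in SMART-seq (log2 -4.51, SE 0.315), and Nodal, the ligand that activin stands in for, 2.36 and 0.129 CPM against 32 and 17.8 (log2 -4.35, SE 1.02, adjusted p = 0.012). Nodal was named after its value was seen. Smad2, the receptor-activated Smad, had 197 and 170 CPM in DP-seq against 47.3 and 44.7 in SMART-seq (log2 2.00, SE 0.182). All 3 kept these directions in the method-set library, at -4.31, -4.70 and 0.99.

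Among primitive streak genes 4 of 17 rose and 2 fell (23.5% and 11.8%). The median log2 difference of the 17 pointed the other way, at -1.50. It was -0.63 at 100 ng/mL and -0.27 with the method-set library. T, the streak and notochord transcription factor, had 481 and 497 CPM in DP-seq and 241 and 291 CPM in SMART-seq (log2 0.88, SE 0.132, adjusted p = 0.0017). It was 0.18 and not called with the method-set library, and 1.01 at 100 ng/mL. Mixl1, a mesendoderm factor, had 35.4 and 19.3 CPM in DP-seq and 86.2 and 70.3 in SMART-seq (log2 -1.52, adjusted p = 0.0102), and was not called in the other contrasts, at -0.64 with the method-set library and -1.19 at 100 ng/mL. Nkx1-2, a gene of the late streak, had 29.1 and 32.9 CPM in DP-seq and 0 and 1.69 in SMART-seq, a call that was lost without either DP-seq library. Eomes was below the filter, with 4 and 2 raw counts in DP-seq and 10 and 4 in SMART-seq, against 92 and 129 counts in standard RNA-seq. The SMART-seq libraries were the deeper, so these raw counts do not give the order of the 2 methods. Gsc and Lhx1, organizer genes, were not called, at -1.50 (SE 0.998) and 0.52 (SE 0.399).

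In the endoderm list 7 of 20 genes rose and 6 fell (35% and 30%). Cer1, a secreted Nodal and BMP antagonist, had 215 and 233 CPM in DP-seq and 186 and 203 in SMART-seq, and was not called (log2 0.20, SE 0.139). Foxa2 had 108 and 116 CPM in DP-seq and 38.3 and 57.7 in SMART-seq (log2 1.22, adjusted p = 0.0075). Its call was lost without either DP-seq library (1.15 to 1.29), and the method-set library gave 0.12. Shisa2, an inhibitor of Wnt and Fgf receptors, had 557 and 520 CPM in DP-seq and 36.8 and 38.8 in SMART-seq (log2 3.83, SE 0.137). Dkk1, a Wnt antagonist, had 7.38 and 7.98 CPM against 103 and 80.0 (log2 -3.57, SE 0.288). Shisa2 and Dkk1 kept their direction in the other 2 contrasts, at 2.52 and 2.23 for Shisa2 and -2.77 and -2.60 for Dkk1. Sox17 was not called, at -1.29 (SE 0.490).

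Pluripotency and epiblast genes had 4 of 20 members higher and 3 lower (20% and 15%). Pou5f1 (Oct4) had 148 and 173 CPM in DP-seq and 273 and 257 in SMART-seq (log2 -0.72, SE 0.146, adjusted p = 0.0065). Its call was lost with library totals (-0.28), and at 100 ng/mL it was higher in DP-seq, at 1.12. Nanog, Fgf5 and Sox2 were not called, at 1.18, 0.26 and 0.17. Dnmt3b, a de novo DNA methyltransferase of the epiblast, had 3 and 7 raw counts in the DP-seq dilution pair and 1338 in the method-set library. It had 16 and 7 counts in the deeper SMART-seq libraries, and 126 and 144 in standard RNA-seq. The raw counts do not give the order of the dilution pair and SMART-seq at this gene. Mesoderm genes had 3 of 10 higher and 3 lower (30% each), and neuroectoderm genes 4 of 13 higher and 1 lower (30.8% and 7.69%).

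Markers of other cell types were scarce. Extraembryonic endoderm markers took 0.0403% and 0.0393% of counts in DP-seq against 0.0234% and 0.0204% in SMART-seq, trophoblast markers 0.00132% and 0.00171% against 0.00937% and 0.00643%, blood and endothelium markers 0.00305% and 0.00146% against 0.00191% and 0.00251%, and fibroblast markers 0.00744% and 0.00571% against 0.0143% and 0.0106%. Their part in the differences between methods was not tested.

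**Figure D4:**
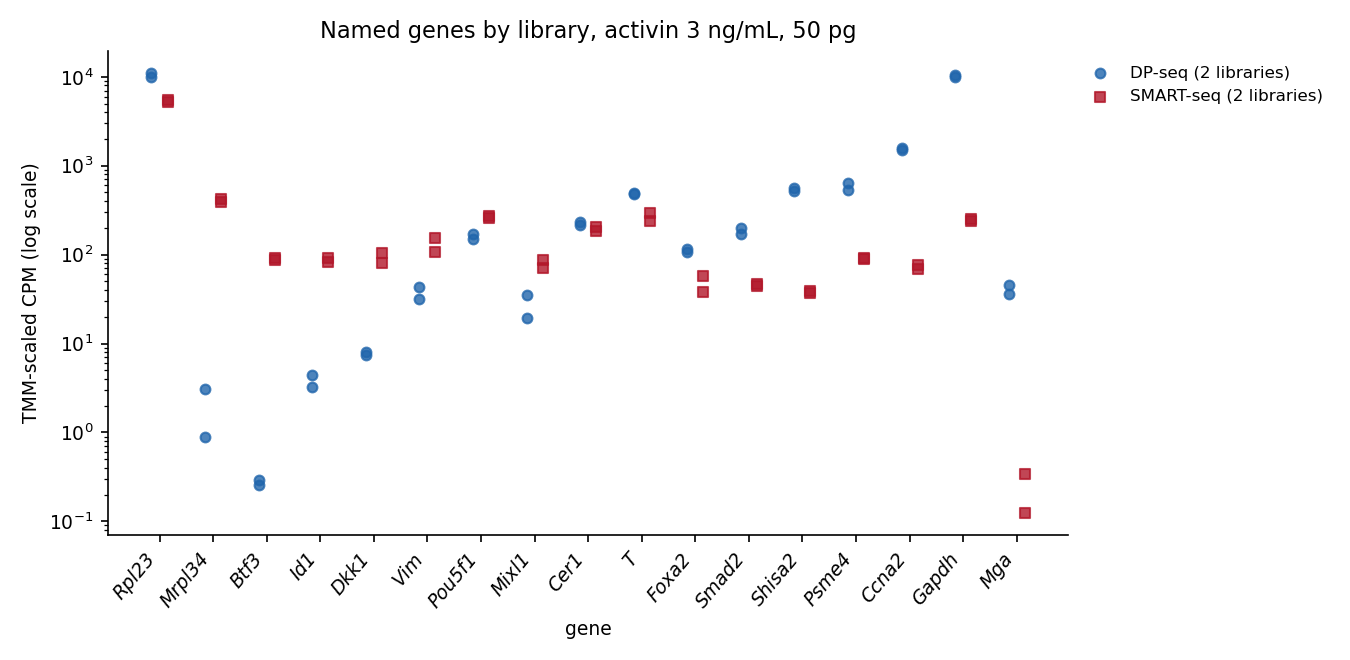
TMM-scaled CPM (vertical log axis) of 17 named genes in the 2 DP-seq libraries (blue circles, left of each pair) and the 2 SMART-seq libraries (red squares) at activin 3 ng/mL. Cer1 stands at 215 and 233 CPM in DP-seq beside 186 and 203 CPM in SMART-seq, while Gapdh, Ccna2 and Mga stand far higher in DP-seq and Mrpl34, Btf3 and Id1 far lower.

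The third question was how far technical replicates spread. For genes averaging 10 counts or more at equal depth, the SD of the log2 ratio between replicates was 1.08 in DP-seq (9103 genes) and 1.08 in SMART-seq (9229 genes), and 19.0% and 19.7% of genes differed at least 2-fold. At 100 ng/mL the SDs were 1.20 in DP-seq and 1.22 in SMART-seq. Standard RNA-seq of 20 ng gave 0.256, with 0.952% of genes at least 2-fold apart. The coefficient of biological variation that edgeR estimated from each pair, here a technical quantity, was 34.8% in DP-seq and 35.3% in SMART-seq, against 1.46% in standard RNA-seq. In spread over all genes the methods differed by less than either differed between the 2 doses.

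Which method spread more depended on how genes were binned. Binned by their own counts, genes spread more in DP-seq in every bin, from 1.98 against 1.92 in SMART-seq at 10 to 30 counts to 0.172 (368 genes) against 0.108 (334 genes) at 3000 counts and over. Binned by level in standard RNA-seq, they spread less in DP-seq in each bin from 3 CPM upwards, for example 0.475 against 0.587 in SMART-seq at 100 to 300 CPM and 0.243 against 0.271 at 300 CPM and over. At 100 ng/mL the order in that highest bin was the other way, with 0.299 in DP-seq and 0.286 in SMART-seq. For genes at 10 to 100 CPM in standard RNA-seq and 500 to 1000 bases long, the SD was 0.967 in DP-seq and 0.330 in SMART-seq, with median counts of 94.5 and 736. At 4000 to 8000 bases it was 1.26 in DP-seq and 1.53 in SMART-seq, with median counts of 71.5 and 36. The order by length was the same at 100 ng/mL, at 1.07 against 0.311 for the shorter class and 1.10 against 1.64 for the longer. Read counts moved with these spreads, and their part was not tested.

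**Figure D5:**
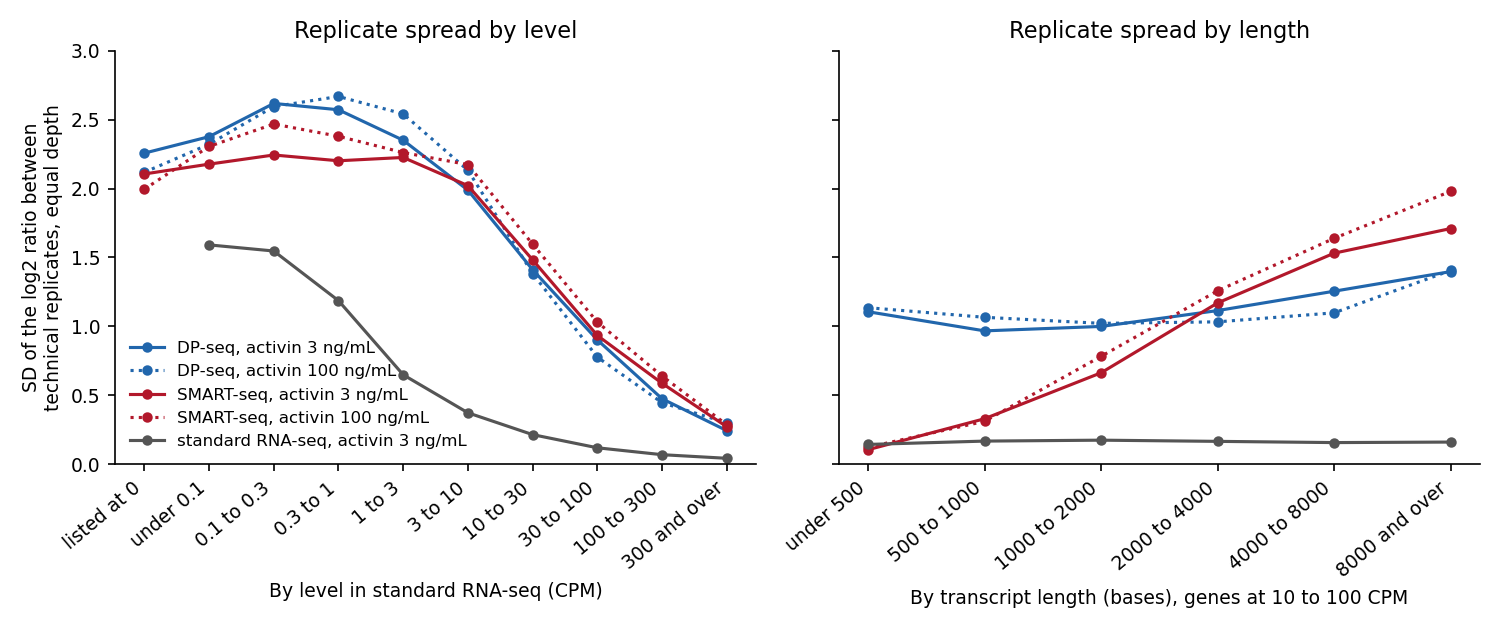
SD of the log2 ratio between technical replicates at equal depth (vertical axis), by level in standard RNA-seq (left) and by transcript length for genes at 10 to 100 CPM (right). DP-seq (blue) changes little with length below 4000 bases, while SMART-seq (red) climbs from 0.105 under 500 bases to 1.71 at 8000 bases and over.

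The method-set DP-seq library served as a check on the dilution pair. Over 10462 genes the SD of the log2 ratio was 1.22 between the dilution libraries, 1.47 and 1.51 between them and the method-set library, and 2.72 to 2.77 between DP-seq dilution and SMART-seq libraries. Against standard RNA-seq it was 2.24 to 2.27 for the dilution libraries, 1.98 for the method-set library and 2.29 for SMART-seq. The method-set library over the dilution pair gave 585 calls among 12236 genes (4.78%), 162 higher (1.32%) and 423 lower (3.46%). Without the first or the second dilution library the calls were 92 and 139, and without either SMART-seq library, which the fit used for its spread, 1270 and 1303.

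Some of these differences were large. Part of the large ones were shared with the DP-seq libraries at 100 ng/mL, which belong to the same method set, and part were not. Zdhhc4, a palmitoyltransferase gene, had 5186 counts in the method-set library and 5844 and 6849 at 100 ng/mL, against 22 and 15 in the dilution pair. Serf1 had 6581, with 6489 and 6840 at 100 ng/mL, against 231 and 331. Eif1ad had 8753, with 9958 and 8769, against 272 and 288, and Abcf2 had 6456, with 6613 and 6737, against 316 and 319. These genes and Dynll1 were picked, after their values were seen, from the genes called in opposite directions at the 2 doses. A difference between the dilution pair and the 100 ng/mL DP-seq libraries was thus favoured by how they were picked. Dnmt3b had 1338 counts in the method-set library, with 1174 and 1257 at 100 ng/mL. Srgn had 366 counts in the method-set library but 6 and 6 in DP-seq at 100 ng/mL, and Ccdc175 131 but 2 and 4. Ncl, which encodes nucleolin, took 3.45% of counts in the method-set library, against 0.478% and 0.493% in the dilution pair. In the other direction Rn7sk, a small nuclear RNA that restrains transcription elongation, had 4 counts in the method-set library against 2534 and 5437 in the dilution pair. Mcpt8, a mast cell protease gene, had 706 counts in the method-set library and 915 and 1088 in DP-seq at 100 ng/mL, and 0 in the dilution pair, in all 4 SMART-seq libraries and in both standard RNA-seq libraries. The labels name 44 primers for the method set and no primer set for the dilution libraries, and the part of the primers in these differences was not tested.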

How the data were processed

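Gene expression was read from 11 of the 33 libraries, each with a table of counts that the authors deposited, as unique read counts per RefSeq transcript per the file headers. All but 14 values are whole numbers. Deposited tables with any such value are listed as estimated counts, and the 14 values were rounded. Per the labels' protocols, mRNA was isolated, single-stranded cDNA was made, and SMART-seq cDNA had 13 cycles of amplification. No aligner, counting rule, strand setting or genome build is named in the sources used here. Coordinates are therefore left out, and overlapping or antisense genes cannot be separated. Transcripts (26566; 25857 named through RefSeq, 150 through GENCODE and 559 under their own identifier) were summed to 21844 genes. Length and GC content come from GENCODE vM21 transcripts, for 98.1% of the genes tested.

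Counts were tested with edgeR 4.0.16 (R 4.3.3): filterByExpr with a minimum count of 10 and total of 15, TMM, robust quasi-likelihood fit, Benjamini-Hochberg adjusted p under 0.05. DESeq2 1.42.0 was an alternative. The script was tested on simulated data. Detection at equal depth is the exact hypergeometric expectation of drawing each library to 5777440 counts; spread used 1 draw with a fixed seed and a pseudocount of 0.5. A gene at 0 in both libraries of a method has its fold given against 3 counts over the pair; floors cover counting error only. Members, gene lists, tests and named genes were chosen with earlier results of these data known. Named genes are, per list, the called members with the largest rise and fall (at least 50 counts in the higher group, same direction in every pair of libraries), the 8 largest rises and falls of all genes, the 5 genes with most counts in one method and 0 in the other, and a fixed set of lineage markers; a selection is printed. Samples were grouped by the labels. Other settings tried were RLE factors, library totals, no filter, thinned depth, transcripts, each library left out and a block on the replicate number.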

Additional observations from a re-analysis of the deposited data

Results flagged for a closer look

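The contrast of DP-seq over SMART-seq was tested for a difference between the 3 ng/mL and 100 ng/mL libraries in 1 edgeR fit of 8 libraries, an interaction chosen after seeing the data. It called 627 of 12598 genes (4.98%). The DP-seq libraries at 3 ng/mL belong to the dilution series and those at 100 ng/mL to the method set, so dose and library set cannot be told apart in this test. Among the named genes with counts in both methods, those whose difference changed, as log2 at 3 ng/mL minus log2 at 100 ng/mL, were Rpl23 (1.87), Rps12 (1.72), Rpl13 (-1.52), Sdhd (2.27), Krt19 (-3.17), Shisa2 (1.53), Pou5f1 (-1.91) and Dnmt3b (-5.77). The genes picked from those called in opposite directions at the 2 doses were Zdhhc4 (-7.83), Abcf2 (-3.96), Serf1 (-4.14), Eif1ad (-3.99) and Dynll1 (3.43). In the method-set DP-seq library at 3 ng/mL, Zdhhc4, Abcf2, Serf1 and Eif1ad had 5186, 6456, 6581 and 8753 counts, of the size seen in the method-set libraries at 100 ng/mL, and Dynll1 had 622 counts there against 2013 and 2186 in the dilution pair.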

How the results depend on the processing

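Calls of DP-seq over SMART-seq at 3 ng/mL stayed within 1.5 times of 5588 in every alternative run; a replicate block gave 5183 calls there and 5273 at 100 ng/mL. Replicate numbers did not pair the libraries (correlation of deviations -0.00139 and 0.0079 over genes, 2 pairs each). Without 1 library the calls ranged from 3509 to 4983 at 100 ng/mL, from 92 to 1303 for the method-set library over the dilution pair (DESeq2 1151), and from 283 to 542 for the interaction with dose; a method left with 1 library was assumed to vary like the rest. The same omissions gave 2 to 11 matrix genes higher, 14 to 24 very long genes higher, 30 to 71 Zfp genes higher and 5 to 6 histones lower. Histones lower were 5 with library totals, 14 at 100 ng/mL and 5 with the method-set library, against 8. At 2000 to 4000 bases, genes lower in DP-seq were 753 with library totals, 848 at 100 ng/mL, 969 with RLE factors and 674 with the method-set library, each fewer than the genes higher (1254, 987, 1018 and 784). The difference in genes detected, DP-seq minus SMART-seq, was -566 and became -164 at 5 counts, -48.0 at 10 counts, -235 at 1000000 counts, -871 for transcripts, and turned to 168 at 1000000 counts with 10 counts, 71.2 with the method-set library (456 at 10 counts) and 114 at 100 ng/mL (273 at 10 counts). Replicate spread was 0.547 in DP-seq and 0.544 in SMART-seq at a mean of 50 counts, and 0.538 and 0.558 as a scaled median absolute deviation. For counts as deposited, at unequal depth, it was 1.11 in DP-seq over 9223 genes and 1.81 in SMART-seq over 11599 genes. Of 78 named called genes 10 lost the call under RLE factors, library totals, no filter or the replicate block. When a library was left out 25 lost it, and 0 changed direction in any of these settings. DESeq2, thinned depth and transcripts were not checked for the named genes. The cause of these shifts was not tested, and depth limits the genes of few counts.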
